A study of Mus musculus with 29 samples.

Results

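The 9 genes described here encode transcription factors that direct the effector, exhausted and stem-like states of T cells. They are *Tox*, *Tcf7*, *Eomes*, *Tbx21*, *Prdm1*, *Ikzf3*, *Batf*, *Id3* and *Runx3*, and they were taken by symbol from the 24421 genes of the count table, where all 9 were found. They were measured by bulk RNA-seq in 29 mice, with 1 library per mouse. Young female C57BL/6 J mice received an intraperitoneal (IP) injection of YTN16, a line of mouse gastric cancer (GC) cells, and the tissue labelled as tumor was stripped peritoneum with or without visible nodules.

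At 3wk (day 21) there were 5 untreated mice and 5 mice given dual ICI, the combination of anti-PD1 and anti-CTLA4 antibodies. At 5wk (day 35) there were 5 untreated mice, 5 given anti-PD1 alone, 4 given anti-CTLA4 alone and 5 given dual ICI. All the mice, treated or not, carried the YTN16 implant, all antibodies were given IP, and untreated mice received PBS. The labels do not give the outcome. It was taken from the mouse numbers of the study, with the number in each library's title read as the mouse number, which makes mice 1 and 5 of the dual ICI group uncured and mice 2, 3 and 4 cured. One anti-PD1 mouse was also cured in the study, but its number is not given in the sources used here. The day of collection was the same split as the series of library names in the labels, so day and library series cannot be told apart. In the study the 5wk mice also had more antibody or PBS doses than the 3wk mice, so dose number follows day too.

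Naive and memory T cells hold *Tcf7* (TCF1), an HMG-box factor of the Wnt pathway that keeps cells able to self-renew, and *Id3*, an inhibitor of E proteins. After activation, the T-box factors *Tbx21* (T-bet) and *Eomes* switch on cytotoxic genes and interferon gamma, *Runx3* holds the CD8 lineage and residency in tissue, and *Prdm1* (Blimp-1) drives terminal differentiation. Under persistent antigen, *Tox* installs the exhausted state, with *Batf* as an AP-1 partner of IRF4. *Ikzf3* (Aiolos) is a zinc finger protein of the Ikaros family in lymphocytes. None of the 9 is unique to T cells: NK cells use *Tbx21* and *Eomes*, plasma cells and macrophages use *Prdm1*, B cells use *Ikzf3* and *Batf*, and *Id3* is broadly expressed.

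The bulk libraries do not tell fewer T cells from less RNA per T cell. Defining T cell markers were present in every group: the CPM (a rate of read counts per TMM-scaled library total) of 9 T cell genes summed to between 12.9 and 65.3. Over 15 marker lists, skeletal muscle genes held from 4.03% to 23.5% of all counts, and gastric epithelium genes summed to at most 101.0 CPM in the 3 cured mice against 903.0 or more in every other mouse except anti-PD1 mouse 5, at 66.3. This mouse and untreated mouse 2 of 5wk, with 1190.0 CPM of gastric epithelium genes and 264000.0 of muscle genes, stood apart from their groups. The other anti-PD1 mice had 3060.0 to 3890.0 CPM of gastric epithelium genes. Anti-PD1 mouse 5 thus lay in the range of the 3 cured mice (23.9 to 101.0 CPM). It may be the anti-PD1 mouse that was cured in the study, which its label does not say. Library totals lay between 25989217 and 31219650 counts, which for these genes meant from 0 to 1978 counts per library.

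Start regions are given for the pair of genes that separated the uncured mice from every untreated or monotherapy mouse at 5wk and had a start region in the RefSeq table (GRCm38.p6). Each is 300 bases long, read 5′ to 3′ on the strand of the gene. Capitals mark matches to 6 motifs searched on both strands: a T-box element (GGTGTNA), a Runt motif (TGTGGT), an HMG-box motif (CTTTGA), an AP-1 motif (TGANTCA), an ETS core (GGAAGT) and an NFAT core (TGGAAA). No 2 of the matches marked below overlap.
Runx3, plus strand, chr4:135120395-135120694: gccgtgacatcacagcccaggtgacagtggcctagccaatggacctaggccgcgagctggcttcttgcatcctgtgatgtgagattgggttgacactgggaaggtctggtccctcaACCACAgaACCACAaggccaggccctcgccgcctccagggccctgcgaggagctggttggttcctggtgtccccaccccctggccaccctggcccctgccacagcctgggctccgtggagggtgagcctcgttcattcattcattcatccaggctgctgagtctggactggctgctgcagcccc
Prdm1, minus strand, chr10:44458699-44458998: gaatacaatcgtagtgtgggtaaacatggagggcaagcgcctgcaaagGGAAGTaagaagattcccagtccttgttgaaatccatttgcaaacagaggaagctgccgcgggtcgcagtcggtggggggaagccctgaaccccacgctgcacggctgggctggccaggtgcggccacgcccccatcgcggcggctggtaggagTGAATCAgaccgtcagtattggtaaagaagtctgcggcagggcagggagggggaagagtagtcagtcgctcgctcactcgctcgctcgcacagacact

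The *Runx3* region held 2 Runt motifs on the opposite strand, at -134 and -126 from the start site. The *Prdm1* region held an ETS core at -202 and, at -48, a match (TGAATCA) to the AP-1 motif as searched, which leaves its middle base open. Among all 32851 start regions of this length, 16.8% held the Runt motif, 23.8% the ETS core and 7.8% the AP-1 motif. *Runx3* has a second RefSeq start, without a match to any of the 6. The T-box element (10.2% of all regions) and the HMG-box motif (16.0%) matched none of the 9 start regions that the table held for 7 of these genes; *Tox* and *Ikzf3* had none. On GRCm38 with GENCODE vM21, *Runx3* lies on the plus strand at chr4:135120652-135177990 and *Prdm1* on the minus strand at chr10:44437177-44528501. *Ikzf3* lies at chr11:98464902-98546031, *Tox* at chr4:6686353-6991557 and *Tcf7* at chr11:52252371-52283014, all on the minus strand. *Tbx21* is also on the minus strand, at chr11:97098071-97115331. *Eomes* (chr9:118478212-118486132), *Batf* (chr12:85686669-85709087) and *Id3* (chr4:136143497-136145755) are on the plus strand. Antisense genes share 3.42% of the exon bases of *Tox* and 2.84% of those of *Eomes*, and as no source used here gives the strand rule of the counting, counts there are uncertain.

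Per kilobase of exon, *Id3* had by far the highest level of the 9, at 18.0 to 31.8 mean CPM per kb over the 7 groups. *Tcf7* came next in all groups but the cured mice, at 2.19 to 4.24 CPM per kb, and was at 0.617 in the cured mice. *Tox*, *Ikzf3*, *Eomes* and *Tbx21* stayed below 1 CPM per kb in every group, with *Ikzf3* at 0.241 in untreated mice at 5wk and 0.807 under dual ICI at 3wk. Unless a level is said to be per kb, the CPM below are not divided by length and are compared between mice, not between genes.

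**Figure D1:**
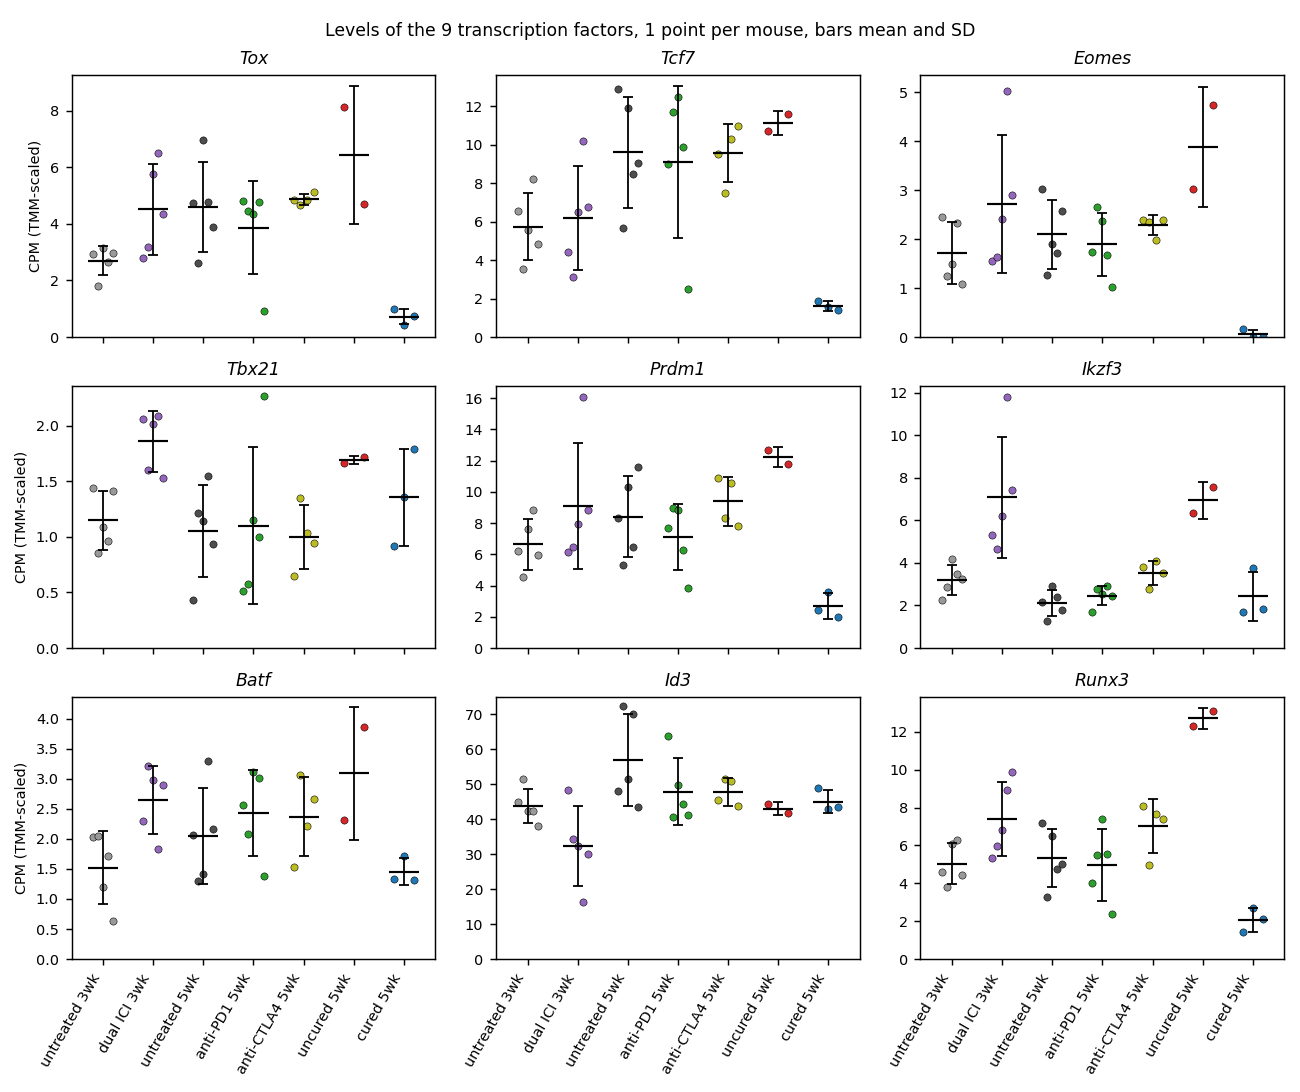
CPM on TMM-scaled library totals (vertical axes, from 0, a scale for each gene) of the 9 genes in the 7 groups (horizontal axis), with 1 point per mouse and bars for the mean and SD. *Runx3* in the 2 uncured mice (12.3 and 13.1) lies above every other mouse, and *Tox*, *Tcf7*, *Eomes*, *Prdm1* and *Runx3* are low in the 3 cured mice. *Tbx21* and *Id3* are not low there on this TMM scale.

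The comparison at 3wk asked how these factors stood in dual ICI mice at the earlier time, before tumors disappeared. *Ikzf3* and *Tbx21* were higher in every dual ICI mouse than in every untreated mouse, and 8 of the 9 genes had a positive log2 fold change, but none passed the test at an adjusted p under 0.05 (edgeR quasi-likelihood test, Benjamini-Hochberg adjustment over all genes), which called 0.574% of 15503 genes. At an unadjusted p under 0.05, 5 of the 9 were higher (*Tox*, *Tbx21*, *Ikzf3*, *Batf* and *Runx3*), against 6.02% of all genes. The 2 of 9 that were higher in every mouse stand beside 1.83% of all genes.

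*Ikzf3* stood at 5.31, 4.66, 6.19, 11.8 and 7.42 CPM in dual ICI mice 1 to 5 and at 2.24, 2.86, 4.18, 3.48 and 3.23 CPM in the untreated mice. The groups did not overlap, and dual ICI mouse 4 was the highest. The log2 fold change was 1.16 ± 0.27 (SE) with an adjusted p of 0.0973 by edgeR, and DESeq2, which called 2.91% of genes, gave 1.16 with an adjusted p of 0.00348. B cell markers (3.12 to 6.19 CPM in untreated and 5.09 to 8.5 CPM in dual ICI mice, summed over 8 genes) and plasma cell markers (6.87 to 46.8 and 18.4 to 76.0 CPM over 4 genes) overlapped between the groups, and their part in the level of *Ikzf3* was not tested.

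*Tbx21* stood at 2.06, 1.6, 2.02, 2.09 and 1.53 CPM under dual ICI and at 1.44, 0.852, 1.09, 0.963 and 1.41 CPM in untreated mice. These are 43 to 78 counts against 22 to 41, a small gap between groups that did not overlap (log2 fold change 0.70 ± 0.22, edgeR adjusted p = 0.242); on library totals without TMM scaling they overlapped. Its T-box relative *Eomes* overlapped, at 1.56 to 5.03 CPM against 1.08 to 2.45 (0.67 ± 0.37, edgeR adjusted p = 0.573). Among NK cell markers, *Klra4* and *Klra8* were at or under 3 counts in every library of both groups, and the list of 7 genes summed to 1.94 to 4.44 CPM under dual ICI and 1.65 to 2.61 in untreated mice.

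*Runx3* ranged from 5.35 to 9.9 CPM under dual ICI and from 3.79 to 6.28 in untreated mice (0.56 ± 0.22, edgeR adjusted p = 0.359). *Prdm1* ranged from 6.17 to 16.1 CPM against 4.57 to 8.82 (0.47 ± 0.28, edgeR adjusted p = 0.62). Macrophage markers, 9 genes, summed to 1310.0 to 2340.0 CPM under dual ICI and 1150.0 to 1330.0 CPM in untreated mice. Of these 9 markers, 7 were higher at an unadjusted p under 0.05 and none passed the adjusted test (edgeR, median log2 fold change 0.53). Plasma cell markers, given above, overlapped between the groups. The part of either list in the level of *Prdm1* was not tested. Dual ICI mouse 4, the highest for *Prdm1*, also had the highest *Eomes*, *Ikzf3*, *Tox* and *Tcf7* of its group, the lowest *Id3*, and the highest sum of CD8 T cell markers (32.0 CPM, the others 11.3 to 20.9). Its tissue differed in more than CD8 T cells. Gastric epithelium markers were the highest of the group (2820.0 CPM, the others 959.0 to 2090.0). Skeletal muscle markers were the lowest (61400.0 CPM, the others 101000.0 to 242000.0). The part of tissue make-up in these levels was not tested.

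Of the factors tied to exhaustion, *Tox* ranged from 2.8 to 6.52 CPM under dual ICI against 1.82 to 3.13 (0.76 ± 0.27, edgeR adjusted p = 0.306) and *Batf* from 1.84 to 3.21 against 0.631 to 2.05 (0.79 ± 0.31, edgeR adjusted p = 0.362). The pair tied to stem-like cells had the smallest and the only negative fold change: *Tcf7* ranged from 3.13 to 10.2 CPM against 3.56 to 8.2 (0.13 ± 0.31, edgeR adjusted p = 0.953), and *Id3* from 16.2 to 48.3 CPM against 38.1 to 51.3 (-0.45 ± 0.22, edgeR adjusted p = 0.521). Without dual ICI mouse 4 the log2 fold change of *Tcf7* was -0.14. The log2 ratio of *Tox* to *Tcf7* was -0.41 ± 0.31 (SD, n = 5) in dual ICI mice, from -0.64 to 0.02, and -1.04 ± 0.36 (n = 5) in untreated mice, from -1.61 to -0.70, so these ranges did not overlap. At 5wk the ratio overlapped, at -0.38 and -1.28 in uncured mice and -1.43 to -0.77 in untreated mice. The ratio was not tested, and no share over other gene pairs was taken.

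The median log2 fold change of the 9 genes at 3wk was 0.67, against 0.02 over all genes tested. The 9 T cell markers tested had a median of 1.23 with 2 called (*Cd3g* and *Cd247*), and both CD8 markers rose, *Cd8a* by 2.31 ± 0.35 with an edgeR adjusted p of 0.0193. Among 13 effector genes the median was 1.48 and 3 rose: the granzyme gene *Gzmk*, the granule gene *Nkg7* (2.05 ± 0.24) and the chemokine gene *Ccl5* (2.34 ± 0.28). Of 10 exhaustion receptors (median 0.60), 8 memory and stem-like genes (0.53) and 24 other T cell transcription factors (0.10), none was called. The largest fold changes there were *Tigit* (1.51) and *Pdcd1* (1.18), *Slamf6* (1.27) and *Cd27* (0.93), and *Lef1* (0.89) and *Stat4* (0.86).

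**Figure D2:**
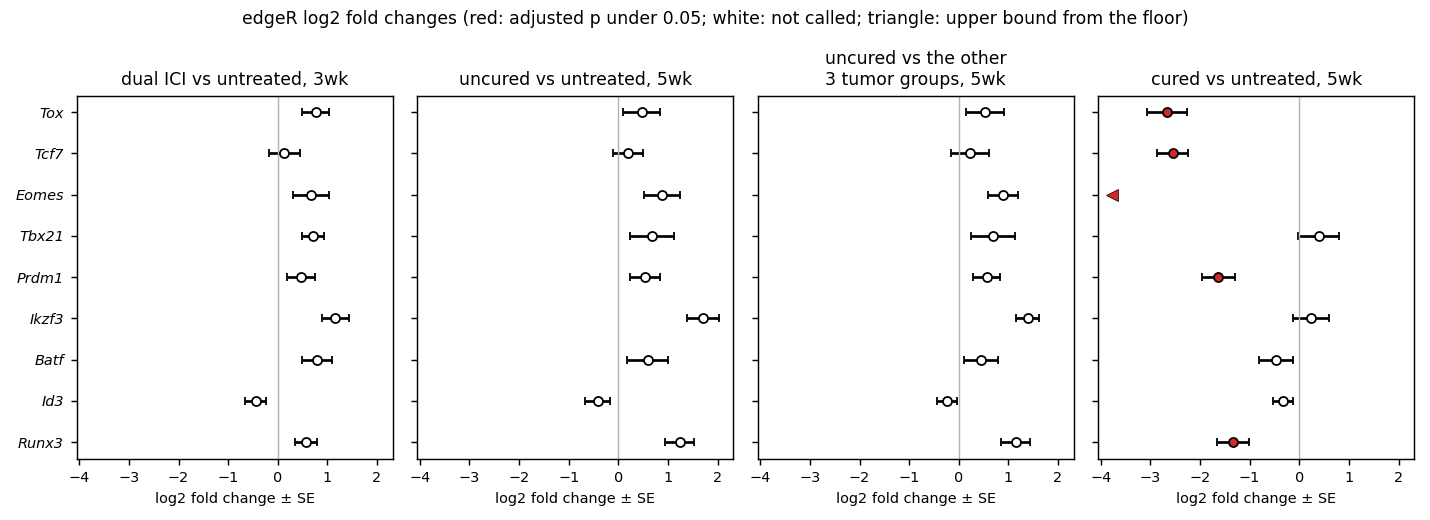
Log2 fold change (horizontal axis) with SE of the 9 genes (vertical axis) from edgeR in 4 comparisons. Red points passed an adjusted p of 0.05, white points did not, and the triangle is the bound for *Eomes* in cured mice. *Ikzf3* has the largest fold change in the first 3 panels (1.16, 1.71 and 1.39) without passing, and the called genes are all in the panel of cured mice, where the fold is negative.

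At 5wk the uncured mice were set against untreated mice, both groups with tumor. *Ikzf3*, *Runx3*, *Prdm1* and *Tbx21* were higher in both uncured mice than in every untreated mouse, 4 of 9 genes beside 9.22% of all genes. With 2 uncured mice the edgeR test called 0 of 16156 genes (0%), none of the 9 included, and 3 of the 9 (*Ikzf3*, *Runx3* and *Eomes*) were higher at an unadjusted p under 0.05 against 2.74% of all genes. DESeq2 called *Ikzf3* and 0.108% of all genes.

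*Ikzf3* stood at 6.32 and 7.55 CPM in uncured mice 1 and 5 and at 2.18, 1.26, 2.93, 2.39 and 1.79 CPM in the untreated mice. Both uncured mice were well above the highest untreated mouse, and the log2 fold change was 1.71 ± 0.32, with an unadjusted p of 0.000462 and an adjusted p of 0.734 by edgeR and an adjusted p of 0.00484 by DESeq2. Plasma cell markers were 173.0 and 208.0 CPM in the uncured and 8.09 to 156.0 CPM in the untreated mice, also without overlap, and B cell markers were 9.57 and 11.1 against 2.44 to 11.4 CPM. T cell markers were 45.3 and 45.4 CPM against 18.4 to 30.9. The part of each cell type in the level of *Ikzf3* was not tested.

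*Runx3* stood at 12.3 and 13.1 CPM in the uncured mice and at 7.18, 3.29, 6.48, 4.77 and 5.02 CPM in the untreated mice. The uncured values were close to each other and above all the rest (1.24 ± 0.29, unadjusted p = 0.00194 and adjusted p = 0.734 by edgeR). *Prdm1* was 12.7 and 11.8 CPM against 8.36, 5.33, 10.3, 6.44 and 11.6, where the nearest untreated mouse was just below (0.53 ± 0.30, edgeR adjusted p = 0.734). Macrophage markers were 1320.0 and 1520.0 CPM against 564.0 to 1360.0 and overlapped, while plasma cell markers, given above, did not. The part of either list in the level of *Prdm1* was not tested. *Tbx21* was 1.67 and 1.72 CPM against 0.429 to 1.55, and *Eomes* was 3.02 and 4.75 against 1.26 to 3.03, overlapping by 1 untreated mouse (0.68 ± 0.45 and 0.88 ± 0.37, edgeR adjusted p = 0.734 for both).

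*Tox* was 8.15 and 4.72 CPM in the uncured mice and 2.6 to 6.98 CPM in the untreated mice (0.47 ± 0.37, edgeR adjusted p = 0.739). *Batf* (2.31 and 3.87 against 1.3 to 3.3 CPM), *Tcf7* (10.7 and 11.6 against 5.65 to 12.9 CPM) and *Id3* (44.4 and 41.6 against 43.5 to 72.2 CPM) also overlapped, with log2 fold changes of 0.59 ± 0.41, 0.20 ± 0.30 and -0.42 ± 0.25. *Id3* was again the only gene of the 9 below 0. On library totals every fold of this comparison moves by 0.21, with no direction of the 9 changed. The median over the 9 was 0.59, against -0.01 over all genes, 1.04 over the 9 T cell markers, 1.05 over 13 effector genes, 0.68 over both 10 exhaustion receptors and 8 memory and stem-like genes, and 0.23 over 24 other T cell transcription factors. None of these was called. The largest changes were *Gzmk* (2.14) and *Prf1* (1.83) among effector genes, *Tigit* (1.05) and *Pdcd1* (1.04) among receptors, and *Cd27* (1.41) and *Slamf6* (1.30) among memory genes. Among the other factors, *Lef1* had a log2 fold change of 1.11.

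Against all 14 mice of 5wk without dual ICI (untreated, anti-PD1 and anti-CTLA4, here called the other tumor groups), 3 of the 9 genes were higher in both uncured mice than in every other mouse: *Ikzf3*, *Runx3* and *Prdm1*, beside 3.13% of all genes. The 14 include the 1 anti-PD1 mouse that was cured in the study. The untreated mice are shared with the comparison above. Among the 14, *Ikzf3* ran from 1.26 to 4.07 CPM, *Runx3* from 2.37 to 8.1, and *Prdm1* from 3.87 to 11.6. The log2 fold changes were 1.39 ± 0.23 for *Ikzf3* (edgeR unadjusted p = 2.35e-05, adjusted p = 0.123), 1.15 ± 0.29 for *Runx3* (adjusted p = 0.495), 0.56 ± 0.27 for *Prdm1* and 0.89 ± 0.30 for *Eomes* (adjusted p = 0.789 for both). The edgeR test called 0 of 16435 genes (0%). DESeq2 called *Ikzf3* (adjusted p = 7.9e-05) and 0.151% of all genes, and edgeR called it when anti-PD1 mouse 5 and untreated mouse 2, which stood apart, were left out together (1.34, adjusted p = 0.0356, beside 0.0915% of all genes). That omission was chosen after seeing the data. When single mice among the 14 were omitted, edgeR called none of the 9. The log2 fold change of *Ikzf3* ranged from 1.26 to 1.52 over all omissions of single mice.

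None of the 9 genes passed the test in either monotherapy against untreated mice. In anti-PD1 mice the log2 fold changes lay between -0.26 and 0.26, and edgeR called 0 of 15640 genes (0%). Anti-PD1 mouse 5 was the lowest of its group for *Tox* (0.929 CPM, the others 4.34 to 4.82), *Tcf7* (2.48, the others 9.03 to 12.5), *Eomes*, *Prdm1*, *Batf* and *Runx3*, and the highest for *Tbx21* (2.27 CPM, 44 counts, the others 0.514 to 1.15). In anti-CTLA4 mice *Ikzf3* was 3.8, 2.77, 4.07 and 3.52 CPM, of which 3 lay above the highest untreated mouse (2.93). Its log2 fold change was 0.73 ± 0.26 (unadjusted p = 0.0167, adjusted p = 1 by edgeR), the others of the 9 lay between -0.27 and 0.38, and again 0 of 15781 genes were called (0%).

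For all 5 dual ICI mice of 5wk, the group that the labels give, none of the 9 passed the test, which called 0 of 15588 genes (0%). *Ikzf3* had the largest log2 fold change against untreated mice, 1.01 ± 0.44 (unadjusted p = 0.0453, adjusted p = 0.634 by edgeR), with values of 6.32, 1.69, 3.75, 1.84 and 7.55 CPM in mice 1 to 5. *Runx3* was 12.3, 1.43, 2.68, 2.13 and 13.1 CPM in the same mice, so the spread within this group was wider than its distance from untreated mice. The cured and the uncured mice lay on opposite sides of the untreated group for *Runx3*, and the values below take them apart.

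In the 3 cured mice 5 of the 9 genes fell below every untreated mouse of 5wk and passed the test: *Tox*, *Tcf7*, *Eomes*, *Prdm1* and *Runx3*. Over all genes, 26.7% of 15816 fell and 26.9% were lower in every cured mouse. *Tcf7* was 1.89, 1.56 and 1.4 CPM in cured mice 2, 3 and 4 and 12.9, 5.65, 11.9, 8.51 and 9.07 CPM in untreated mice. The highest cured mouse was far below the lowest untreated mouse (fell by 2.55 ± 0.31 on the log2 scale, edgeR adjusted p = 0.000288). *Tox* was 0.973, 0.438 and 0.726 CPM, 9 to 19 counts, against 4.75, 2.6, 6.98, 4.77 and 3.88 CPM (fell by 2.66 ± 0.40, edgeR adjusted p = 0.000865).

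*Eomes* was nearly absent from the cured mice, with 3, 0 and 0 counts against 31 to 106 in untreated mice, and it entered the test through the untreated mice. Against the floor of 3 counts per library, its mean was at least 13.6-fold higher in untreated mice (2.1 CPM) and at least 25.2-fold higher in uncured mice (3.88 CPM). The call had an edgeR adjusted p of 0.000759 against untreated mice. *Prdm1* was 2.41, 3.61 and 1.99 CPM against 5.33 to 11.6 (fell by 1.63 ± 0.33, edgeR adjusted p = 0.00378) and *Runx3* was 1.43, 2.68 and 2.13 CPM against 3.29 to 7.18 (fell by 1.33 ± 0.32, edgeR adjusted p = 0.00894).

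*Tbx21*, the other T-box gene, did not follow *Eomes*: it was 0.921, 1.36 and 1.79 CPM in cured mice, 18 to 37 counts, against 0.429 to 1.55 CPM in untreated mice (0.39 ± 0.42, edgeR adjusted p = 0.467). The log2 ratio of *Eomes* to *Tbx21*, not corrected for gene length, was -2.16 or lower in the cured mice, where *Eomes* was at the floor. In the untreated mice of 5wk the ratio lay between 0.04 and 2.64. Outside the cured mice it was below 0 in anti-PD1 mouse 5 (-1.09) and, at 3wk, in untreated mouse 5 (-0.37) and dual ICI mouse 1 (-0.38). *Ikzf3* was 1.69, 3.75 and 1.84 CPM against 1.26 to 2.93 (0.23 ± 0.36, edgeR adjusted p = 0.625), and its log2 fold change was -0.24 without cured mouse 3. *Batf* was 1.33, 1.71 and 1.31 CPM against 1.3 to 3.3 (-0.47 ± 0.35, edgeR adjusted p = 0.292), and *Id3* 48.8, 42.8 and 43.3 CPM against 43.5 to 72.2 (-0.32 ± 0.20, edgeR adjusted p = 0.209). TMM scaling set these directions for *Tbx21* and *Ikzf3*: on library totals without scaling, every log2 fold change of this comparison moves by -0.54, and the means of *Tbx21* (0.979 against 1.08 CPM) and *Ikzf3* (1.75 against 2.29 CPM) were lower in cured mice. On these totals *Id3* no longer overlapped and was lower in every cured mouse (means 32.2 against 58.5 CPM). The share of all genes that did so on totals was not taken.

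Other lists moved in the same comparison. Of the 9 T cell markers 6 fell, *Cd3e* by 1.22 ± 0.39 (edgeR adjusted p = 0.0306), while *Cd8a* (-0.68) and *Cd8b1* (-0.71) did not pass. Of 10 exhaustion receptors 7 fell (*Pdcd1*, -3.77 ± 0.37), of 10 effector genes tested 6 fell (*Cx3cr1*, -4.58 ± 0.53, and *Tnf*, -3.87 ± 0.33), and of 8 memory genes 3 fell and *Cd28* rose (1.72 ± 0.36). The 24 other T cell transcription factors went both ways, with 6 higher (*Irf4*, 1.77 ± 0.19) and 6 lower (*Foxp3*, -2.87 ± 0.50). Skeletal muscle markers were 302000.0 to 337000.0 CPM in cured and 51100.0 to 264000.0 in untreated mice, so the cured tissue and the tumor tissue differed in far more than T cells, and tissue make-up and outcome cannot be told apart here.

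Uncured against cured mice, both under dual ICI, 7 of the 9 genes passed the test as higher and did not overlap. Over all genes, the test called 36.9% of 15796 higher, and 43.7% were higher in every uncured mouse. *Tox* differed by 3.14 ± 0.37 on the log2 scale (edgeR adjusted p = 8.19e-05), *Tcf7* by 2.75 ± 0.21 (6.68e-06), *Runx3* by 2.58 ± 0.26 (2.98e-05), *Prdm1* by 2.17 ± 0.25 (8.33e-05), *Ikzf3* by 1.48 ± 0.34 (0.00438) and *Batf* by 1.07 ± 0.33 (0.0169), and *Eomes*, which entered this test through the uncured mice alone (94 and 174 counts), with the bound given above (edgeR adjusted p = 6.7e-05). *Batf* lost its call without cured mouse 4 (0.98, adjusted p = 0.0528) and without uncured mouse 5 (0.63, adjusted p = 0.189). *Tbx21* (0.28 ± 0.35, edgeR adjusted p = 0.487) and *Id3* (-0.09 ± 0.10, edgeR adjusted p = 0.421) did not pass. Library totals move every fold of this comparison by 0.76. On these totals both genes were higher in every uncured mouse than in every cured mouse. The means were 2.05 against 0.979 CPM for *Tbx21* and 52.1 against 32.2 CPM for *Id3*. The share of all genes that did so on totals was not taken.

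The dual ICI mice of 3wk and the uncured mice of 5wk differed in more than day. Those of 3wk were not divided by outcome and had fewer antibody doses in the study, which cannot be told apart from day. The same holds for the interaction given below. Mean levels of *Ikzf3* were similar (7.07 ± 2.82 CPM, SD, n = 5, at 3wk and 6.94 ± 0.871, n = 2, in uncured mice). Its log2 fold change of -0.04 ± 0.36 (edgeR adjusted p = 0.951) does not exclude a change of either sign. *Runx3* (12.3 and 13.1 against 5.35 to 9.9 CPM) and *Tcf7* (10.7 and 11.6 against 3.13 to 10.2 CPM) were higher in both uncured mice than in every dual ICI mouse of 3wk, 2 of 9 beside 19.1% of all genes. The log2 fold changes were 0.77 ± 0.26 and 0.83 ± 0.38, with edgeR adjusted p of 0.10 and 0.193, and 5.31% of 16135 genes were called. Without dual ICI mouse 4 of 3wk, *Runx3* (0.86, adjusted p = 0.0419), *Tcf7* (1.09, adjusted p = 0.034) and *Prdm1* (0.73, adjusted p = 0.0342) passed, 3 of 9 beside 25% of all genes in that fit. DESeq2 with all mice called *Runx3* (adjusted p = 0.0483), 1 of 9 beside 17.8% of all genes. The 857 genes called with all mice became 0 without uncured mouse 1, 3 without uncured mouse 5, 3, 20 and 32 without dual ICI mouse 3, 2 and 1, and 4006 without dual ICI mouse 4. In the interaction of dual ICI with time, which uses the untreated mice of both days, none of the 9 passed and edgeR called 0 of 16542 genes (0%); the largest were *Runx3* (0.69 ± 0.36, adjusted p = 0.707) and *Ikzf3* (0.56 ± 0.43, adjusted p = 0.716).

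To set the factors against T cell RNA, each log2 CPM was taken relative to the mean of the CD3 genes *Cd3d*, *Cd3e* and *Cd3g* in the same library. That mean was 2.40 ± 0.41 (SD, n = 5) in dual ICI and 0.81 ± 0.53 (n = 5) in untreated mice at 3wk, and 2.26 ± 0.02 (n = 2) in uncured, 1.17 ± 0.32 (n = 5) in untreated and -0.13 ± 0.37 (n = 3) in cured mice at 5wk. The CD3 genes are T cell markers, so other cells that express a factor are not accounted for. At 3wk all 9 factors were lower relative to CD3 under dual ICI, by differences of mean log2 values from -0.52 (*Ikzf3*) to -2.12 (*Id3*), where the median of all genes was -1.60. Of the 9, 5 were lower in every dual ICI mouse (*Tox*, *Tcf7*, *Tbx21*, *Prdm1* and *Id3*), beside 81.2% of all genes. The members thus fell short of CD3 but, *Id3* apart, by less than the median gene, and *Tcf7* (-1.55) was near that median.

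In uncured against untreated mice the differences relative to CD3 ran from -1.46 (*Id3*) to 0.65 (*Ikzf3*), with -1.06 for the median gene. *Ikzf3* and *Runx3* (0.20) were the members above 0, though each overlapped. *Tcf7* (-0.82) and *Id3* were lower in both uncured mice, 2 of 9 beside 66.9% of all genes. *Runx3* relative to CD3 was 1.36 and 1.47 in the uncured mice and 0.59 to 1.65 in the untreated mice, so the gap seen in its CPM was within the spread once CD3 was taken off.

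In cured against untreated mice the median gene was higher by 1.25 relative to CD3. *Tox* (-0.28 ± 0.34, SD, n = 3, against 0.98 ± 0.46, n = 5), *Tcf7* (0.88 ± 0.46 against 2.04 ± 0.49) and *Eomes* were lower in every cured mouse also on this scale, 3 of 9 beside 6.89% of all genes. *Tbx21* (0.60 ± 0.52 against -1.11 ± 0.65), *Ikzf3* (1.36 ± 0.97 against -0.10 ± 0.36) and *Batf* (0.72 ± 0.57 against -0.17 ± 0.32) were higher in every cured mouse, 3 of 9 beside 68% of all genes. *Runx3* was level, at 1.19 ± 0.71 and 1.21 ± 0.46, and *Prdm1* overlapped (1.54 ± 0.80 and 1.85 ± 0.61). With the whole T cell list in place of the CD3 genes, 9 group means of the 9 factors moved by more than their SD and 54 did not; in cured mice *Tox* then stood at -0.88, *Tcf7* at 0.29, *Tbx21* at 0.01, *Batf* at 0.13 and *Id3* at 5.03.

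**Figure D3:**
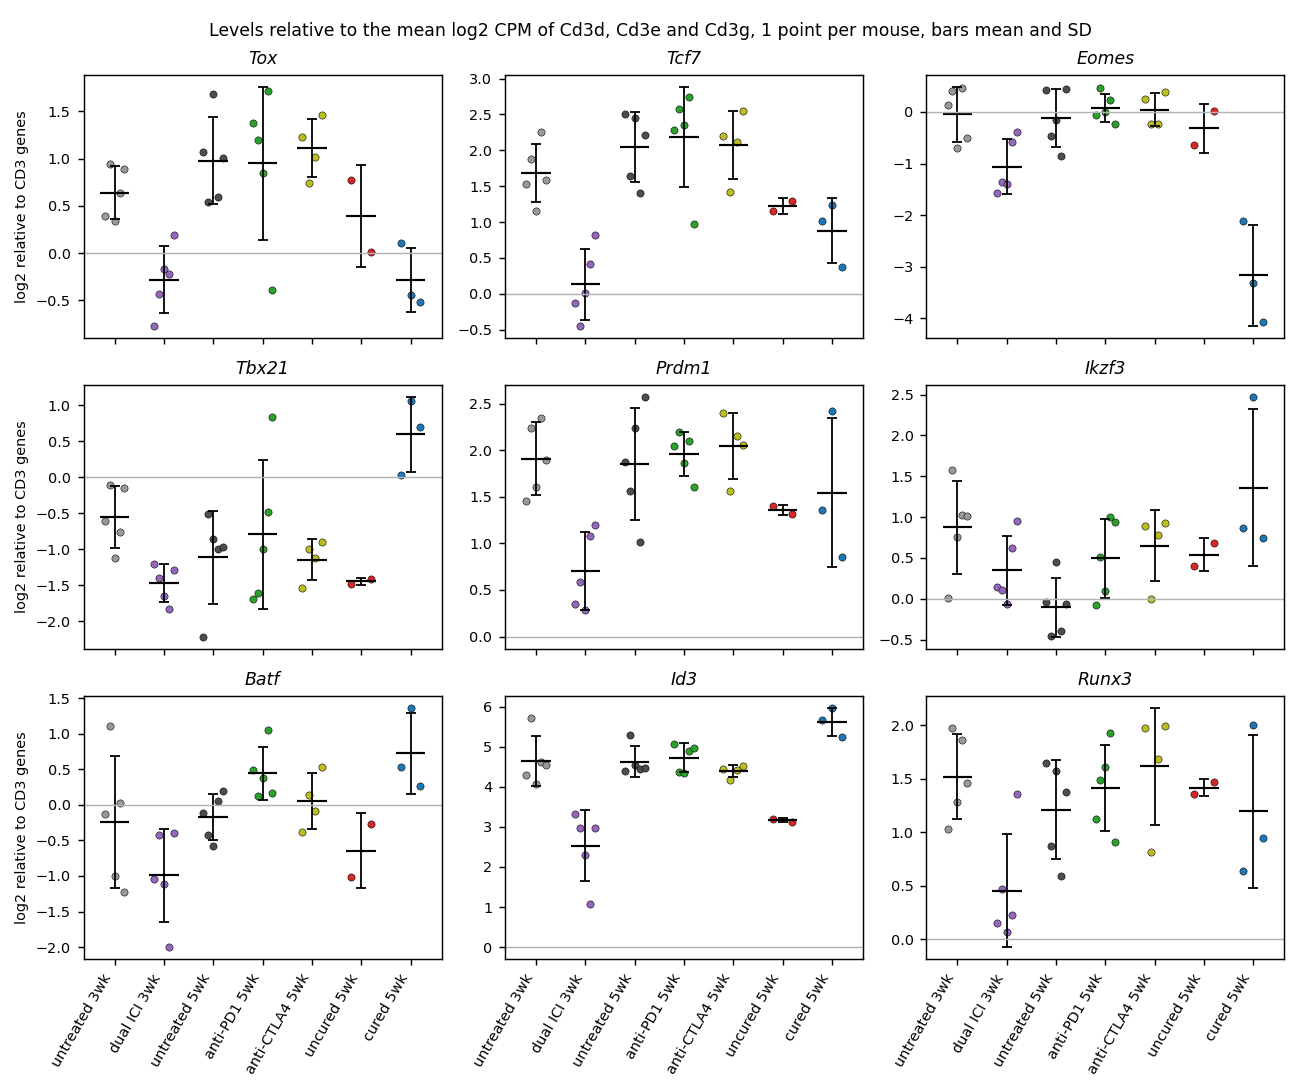
Log2 CPM of each gene minus the mean log2 CPM of *Cd3d*, *Cd3e* and *Cd3g* in the same library (vertical axes) in the 7 groups (horizontal axis), with 1 point per mouse and bars for the mean and SD. Dual ICI mice at 3wk are low for *Tcf7* (mean 0.13) and *Id3* (2.52), and *Tbx21* is high in the cured mice (0.60), where *Eomes* is at the floor of 3 counts.

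Variation between mice of the same group was compared with that of marker genes, as the Pearson r of deviations from the group means over all 29 libraries. These are descriptions across libraries that share tissue make-up and scaling. *Tox* and *Tcf7* went more with the epithelial genes *Epcam* (0.84 and 0.86) and *Krt8* (0.83 and 0.86) than with *Cd3e* (0.32 and 0.34) or *Cd8a* (0.58 and 0.67). Their values were 0.53 and 0.60 with *Cd4* and 0.59 and 0.77 with the dendritic cell gene *Flt3*. Without anti-PD1 mouse 5 and untreated mouse 2 of 5wk, the values with *Epcam* were 0.52 and 0.66 and those with *Cd8a* 0.45 and 0.59. Those with *Krt8* were then 0.49 and 0.68, with *Cd4* 0.51 and 0.60, and with *Flt3* 0.36 and 0.68. In these libraries the epithelial values were thus close to that of *Cd4* for *Tox* and that of *Flt3* for *Tcf7*. *Eomes* went with *Cd8a* (0.72) and *Epcam* (0.70), which were 0.65 and 0.82 without these libraries, and *Tbx21* against *Epcam* (-0.61), which was -0.29 without the same 2 libraries.

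*Runx3* went with *Flt3* (0.79) and *Cd4* (0.63). Against the muscle gene *Ckm* went *Prdm1* (-0.80), *Runx3* (-0.77), *Tcf7* (-0.74), *Eomes* (-0.65), *Tox* (-0.53) and *Ikzf3* (-0.46). *Tbx21* went with *Ckm* (0.54), and *Batf* was at -0.07. *Ikzf3* went with *Flt3* (0.60), *Cd4* (0.55), the B cell gene *Ms4a1* (0.49) and the plasma cell gene *Jchain* (0.42, and 0.26 without the same 2 libraries) more than with *Cd3e* (0.18, and 0.16). *Batf* went with the collagen gene *Col1a1* (0.66), and *Id3* with *Ckm* (0.55) and against *Ikzf3* (-0.61). Among the members, *Tcf7* went with *Tox* (0.84), *Runx3* (0.80), *Prdm1* (0.78) and *Eomes* (0.74). The part of each cell type in these levels was not tested.

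**Figure D4:**
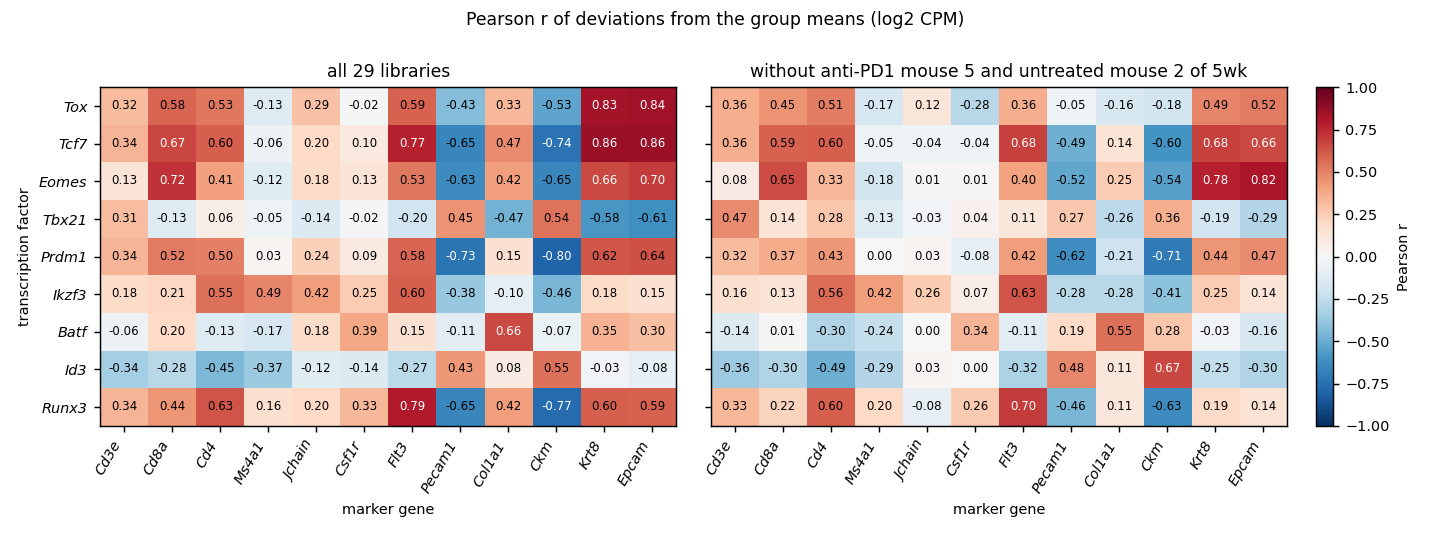
Pearson r of the deviations of log2 CPM from the group means between the 9 factors (rows) and 12 marker genes of other cell types and T cells (columns), over all 29 libraries (left) and without 2 libraries that stood apart (right); red is positive and blue negative. *Tcf7* with *Epcam* reads 0.86 on the left and 0.66 on the right, and *Cd3e* stays at 0.47 or below with every factor.

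Over all expressed genes (mean CPM of at least 0.5), the genes whose deviations were most like each factor were, in order, *Reg1*, *Cps1* and *Tc2n* for *Tox* (r = 0.94 to 0.92), *Fam149a*, *Vcam1* and *Glis3* for *Tcf7* (0.98 to 0.97), and *Cemip*, *Nsdhl* and *AU022754* for *Eomes* (0.87 to 0.85). For *Tbx21* they were *Gm12185*, *Zfp949* and *Cyr61* (0.73 to 0.71), for *Prdm1* *Alg11*, *Pik3c2a* and *Pwwp2a* (0.90 each), and for *Ikzf3* *Pcnxl4*, *D930015E06Rik* and *C2cd5* (0.76 to 0.73). *Batf* was most like *B3gnt8* (0.79), *Id3* like *2300009A05Rik*, *Scand1* and *Imp3* (0.87 to 0.85), and *Runx3* like *Dennd3*, *Paxip1* and *Madd* (0.94 to 0.92). No gene of the T cell marker list was among them.

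Ordered by mean CPM, the uncured mice came first for *Tox*, *Tcf7*, *Eomes*, *Prdm1*, *Batf* and *Runx3*, and the dual ICI mice of 3wk for *Tbx21* and *Ikzf3*, with the uncured mice next. Neighbouring groups in this order mostly overlapped. The ranges were separate between the uncured mice and the next group for *Runx3* (dual ICI at 3wk, up to 9.9 CPM) and *Prdm1* (anti-CTLA4, up to 10.9 CPM), between the uncured and the anti-CTLA4 mice for *Ikzf3*, and between the cured mice and the group above them for *Tox*, *Tcf7*, *Eomes* and *Prdm1*. For *Tbx21*, *Batf* and *Id3* every neighbouring pair overlapped.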

How the data were processed

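Tissue RNA of 29 mice was sequenced, 1 library per mouse. The authors deposited 1 table of raw read counts by gene symbol, not normalized. The authors' methods name STAR and HTSeq, whereas the submitters' processing notes name STAR 2.7.0f, featureCounts 1.6.4 and mm10; the annotation and strand setting are not given in the sources used here. Each library is a separate mouse. No 2 libraries of a group were alike within sampling noise.

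Members and gene lists were chosen with earlier results of these data known. The 10 comparisons used the quasi-likelihood test of edgeR 4.0.16 (R 4.3.3) after TMM scaling and the filterByExpr filter; tests were two-sided and p-values adjusted by Benjamini-Hochberg, with a threshold of 0.05, with only the compared groups in each fit. All 9 members passed the filter. CPM use TMM-scaled totals over all 29 libraries, and log2 CPM a prior count of 2. The floor was 3 counts per library, and it covers counting error only. Genes named are the 9 members, list genes with an adjusted p under 0.05 or otherwise the 2 with the largest fold per list (of called genes, examples are named), the 3 genes most alike, and marker genes. Some genes that this rule names are not reported here. Symbols were matched to GENCODE vM21 (23376 of 24421, 95.7%). The 4 pathway lists and 15 marker lists were written by hand, and the values of 8 marker lists that bear on these genes are given. Alternatives were DESeq2 1.42.0, DESeq2 size factors or upper-quartile scaling in edgeR, no filter, at least 10 counts in every library, all 29 libraries in 1 fit, no skeletal muscle genes, a block for the replicate number, omission of single mice, a prior count of 0.5, CPM on library totals and the T cell list as reference. Leaving out 2 mice together was added after seeing the data. The fits were tested on simulated data. Levels were tabulated in pandas 2.3.3 with numpy 2.4.6 and plotted in matplotlib 3.10.9.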

Additional observations from a re-analysis of the deposited data

Results flagged for a closer look

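*Tox* was 0.929 CPM in anti-PD1 mouse 5, far from the nearest mouse of its group at 4.34 CPM. *Eomes* was 1.99 CPM in anti-CTLA4 mouse 3, below the nearest at 2.36 CPM. *Prdm1* was 16.1 CPM in dual ICI mouse 4 at 3wk, above the nearest at 8.82 CPM. These are 3 of 45 groups looked at, and chance alone flags about 1 in 20 groups. The uncured and the cured mice of the dual ICI group lay on opposite sides of the untreated mice for *Prdm1* and *Runx3*: the uncured minus the cured mice differed by 2.17 on the log2 scale for *Prdm1* (edgeR adjusted p = 8.33e-05) and by 2.58 for *Runx3* (edgeR adjusted p = 2.98e-05). In that test edgeR called 36.9% of all genes higher. Against untreated mice neither gene passed in the uncured mice (edgeR adjusted p = 0.734 for both). *Prdm1* was 11.8 CPM in uncured mouse 5 and 11.6 CPM in the highest untreated mouse.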

How the results depend on the processing

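Of 10 comparisons, the count of members called changed in 6. It went from 0 to 1 with DESeq2 at 3wk, in uncured against untreated mice, in uncured mice against the other tumor groups and in uncured mice against dual ICI mice of 3wk, from 0 to 1 with all 29 libraries in 1 fit at 3wk and in uncured mice against the other tumor groups, and from 0 to 1 in the latter when 2 mice were left out together. With at least 10 counts in every library it went from 5 to 3 in cured against untreated mice and from 7 to 5 in uncured against cured mice, where *Tox* and *Eomes* could no longer be tested; the latter count was 6 without cured mouse 4 or uncured mouse 5. The replicate number as a block moved it from 0 to 1 at 3wk (*Ikzf3*, 1.10, edgeR adjusted p = 0.0409, beside 1.35% of all genes) and in uncured mice against dual ICI mice of 3wk (*Tcf7*, 1.00, edgeR adjusted p = 0.0241, beside 19.8% of all genes). For the dual ICI mice of 3wk these are the numbers in the titles, which differ from the numbers in the library names of the same labels. Not every pair of same-numbered mice deviated together (correlations from -0.346 to 0.658 at 3wk), so the samples share only a number. No block was possible between uncured and cured mice, which share no number. When single mice were omitted, the count ranged from 0 to 3 in uncured mice against dual ICI mice of 3wk, with 3 without dual ICI mouse 4 (25% of all genes were called there), and the log2 fold change ranged from -0.14 to 0.30 for *Tcf7* at 3wk, from -0.24 to 0.44 for *Ikzf3* in cured mice and from -0.17 to 0.23 for *Ikzf3* in uncured mice against dual ICI mice of 3wk. All 29 libraries in 1 fit gave *Ikzf3* an adjusted p of 0.0353 at 3wk (0.623% of all genes called) and 0.0489 against the other tumor groups (0.0599%) by edgeR. The 89 genes called at 3wk became 6 to 119 when single mice were omitted. *Ikzf3* in uncured mice against dual ICI mice of 3wk turned sign with the block (0.12) and without uncured mouse 1 (0.09) or dual ICI mouse 4 (0.23). At 25989217 counts or more per library, the floor of 3 counts limits *Eomes* in cured mice only. The cause of these shifts was not tested.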
